A study of Mus musculus with 36 samples.

Results

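The 9 genes described here are read as marks of alternative macrophage activation or encode chemokines of type 2 immunity. They were taken by symbol, current or older, from the probes of the arrays: Retnla, Chil3 (Chi3l3 in the files), Chil4 (Chi3l4), Mrc1, Mgl2, Clec10a (Mgl1), Ccl17, Ccl22 and Ccl24. All 9 were among the 17605 genes tested. Their RNA was measured on 36 single-colour arrays, 3 for each of 12 groups of mouse myeloid cells, and each group is named as labelled. Mo-DC were grown for 7 days in all, in 10% FCS with GM-CSF (20 ng/ml) and IL-4 (20 ng/ml), and received 25 ng/ml IFN-γ for the last 24 h. All MΦ groups were grown in 10% FCS with 20 ng/ml M-CSF. For the last 24 h they received IL-4 at 20 ng/ml (MΦ_M2a), dexamethasone at 1e-07 M (MΦ_M2c), IFN-γ with LPS (MΦ_M1), IFN-γ on dishes coated with human immunoglobulin at 1 mg/ml (MΦ_M2b), IFN-γ alone (MΦ_IFN-γ) or no stimulus (MΦ_M0). The 4 regulatory macrophage (Mreg) groups were grown in 10% FCS, 10% human AB serum and 5 ng/ml M-CSF. They received IFN-γ with LPS (Mreg_+LPS), IFN-γ after an unsorted start (Mreg_unpurified), IFN-γ (Mreg) or nothing (Mreg_no IFN-γ). IFN-γ was at 25 ng/ml wherever it was used, and LPS is labelled as 100 µg/ml. The starting cells were CD11b+ Ly6C+ Ly6G- bone marrow cells sorted by flow cytometry, which were also measured uncultured (Monocytes). Only Mreg_unpurified began from adherent mononuclear cells of bone marrow, spleen and blood. The labels number the arrays of a group as series 1 to 3 and do not say whether these were separate animals, so every p-value measures only the spread between these arrays.

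Interleukin 4 binds a receptor whose kinases phosphorylate the transcription factor STAT6, and macrophages exposed to it switch on a set of genes known as alternative activation. Retnla (a small secreted resistin-like protein), Chil3 and Chil4 (secreted chitinase-like proteins), and the lectin receptors Mrc1, Mgl2 and Clec10a are among its marks in the mouse. Ccl17 and Ccl22 are ligands of the receptor CCR4, carried by type 2 helper and regulatory T cells, and Ccl24 is an eotaxin that attracts eosinophils through CCR3.

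Values are log2 of the processed signal minus the log2 of the array's 75th percentile. A level of 0 is therefore the 75th percentile of the spots on that array, and levels of different genes cannot be set against each other because each probe has its own brightness. A gene was called changed at an adjusted p below 0.05 in limma's moderated test on all 36 arrays (Benjamini-Hochberg adjustment, separately for each comparison). If no array of the dimmer group had a spot well above background, the fold is a lower bound, written "at least". The adjusted p beside it tests the fitted difference of the values as measured. Between 50.1 and 57.6% of probes were well above background on an array, no spot was saturated, and arrays of a group correlated at 0.982 or more over all probes.

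Bulk RNA cannot tell fewer cells of a type from less RNA per cell, and markers of other cells were read beside the members. Their sums are of linear signal and follow the brightest genes of a list. Itgax among the dendritic cell markers and F13a1 among the Ly6C-high monocyte markers are also among the other IL-4-induced genes read below. All 8 macrophage markers measured were above background on all arrays of every cultured group. Monocytes also carried markers of other cells. All 9 neutrophil and granulocyte precursor genes measured (Elane, Mpo, Ltf and Camp among them) were above background on all 3 arrays, with a summed linear signal of 1910 to 2630 times the 75th percentile, against 0.128 to 8.85 over all cultured groups. All 8 eosinophil, basophil and mast cell genes (Epx and Prg2 among them) were also above background there, with sums of 170 to 332. The largest sum of these 8 genes in a cultured group was 10.4, in Mo-DC. All 6 T and NK cell genes were above background in Monocytes as well (27.0 to 50.3, against at most 1.24 in a cultured group), and so were the 3 B cell genes (3.37 to 3.63, against at most 1.82). The sort that gave these cells gated out Ly6G, and the part of these cells in any member's signal was not tested. Dendritic cell markers summed to 263 to 285 in Mo-DC and to 119 to 225 in MΦ_M2a, the next group. Of these 10 genes, 9 were above background on all 3 Mo-DC arrays. Cd209a, a marker used for monocyte-derived dendritic cells in the mouse, was above it on no Mo-DC array and on all 3 Monocytes arrays.

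The probes shown here carry a limit on what was measured. Each is a 60-base probe in coding sequence, and the coordinates are those of build mm8 in the files. The Chil4 probe spans 280 bases of the minus strand at chr3:106331902-106332181, so it crosses an intron, and the accessions listed for it in the files include a transcript of Chil3 as well as one of Chil4. The signals of these paralogs can therefore not be fully separated. The other is the dimmer of the 2 Ccl24 probes, which did not repeat one call of the brighter probe, at chr5:135855424-135855483 on the minus strand.
Chil4 probe: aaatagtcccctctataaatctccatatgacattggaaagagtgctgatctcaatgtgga
Ccl24 probe: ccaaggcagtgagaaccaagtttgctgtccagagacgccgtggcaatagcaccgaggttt

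Promoters are shown for the 2 members that held the palindrome TTCNNNNGAA, the form that STAT6 prefers. They are the 250 bases before the annotated start, from RefSeq on build GRCm38.p6, and 7 of the 9 members had an entry in that table. Capitals mark the motif, which reads the same on both strands. It was found in Retnla and Ccl17, 2 of the 7, and in 5.85% of 32851 promoter windows of the same length. Chil3, Chil4, Mrc1, Mgl2 and Ccl22 did not hold it within this window. The Chil3 and Chil4 windows, including the 50 bases after the start, aligned with 93.0% identity over the aligned bases.
Retnla, chr16:48842359-48842608, plus strand: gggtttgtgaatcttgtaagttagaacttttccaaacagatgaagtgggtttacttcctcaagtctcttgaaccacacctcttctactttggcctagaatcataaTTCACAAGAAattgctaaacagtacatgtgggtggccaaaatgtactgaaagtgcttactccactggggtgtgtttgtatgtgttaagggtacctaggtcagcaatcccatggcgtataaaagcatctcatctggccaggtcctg
Ccl17, chr8:94810203-94810452, plus strand: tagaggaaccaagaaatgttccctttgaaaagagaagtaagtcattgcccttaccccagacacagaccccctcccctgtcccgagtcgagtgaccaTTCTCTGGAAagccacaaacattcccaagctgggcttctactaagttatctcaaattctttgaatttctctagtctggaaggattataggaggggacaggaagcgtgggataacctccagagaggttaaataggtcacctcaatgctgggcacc

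**Figure D1:**
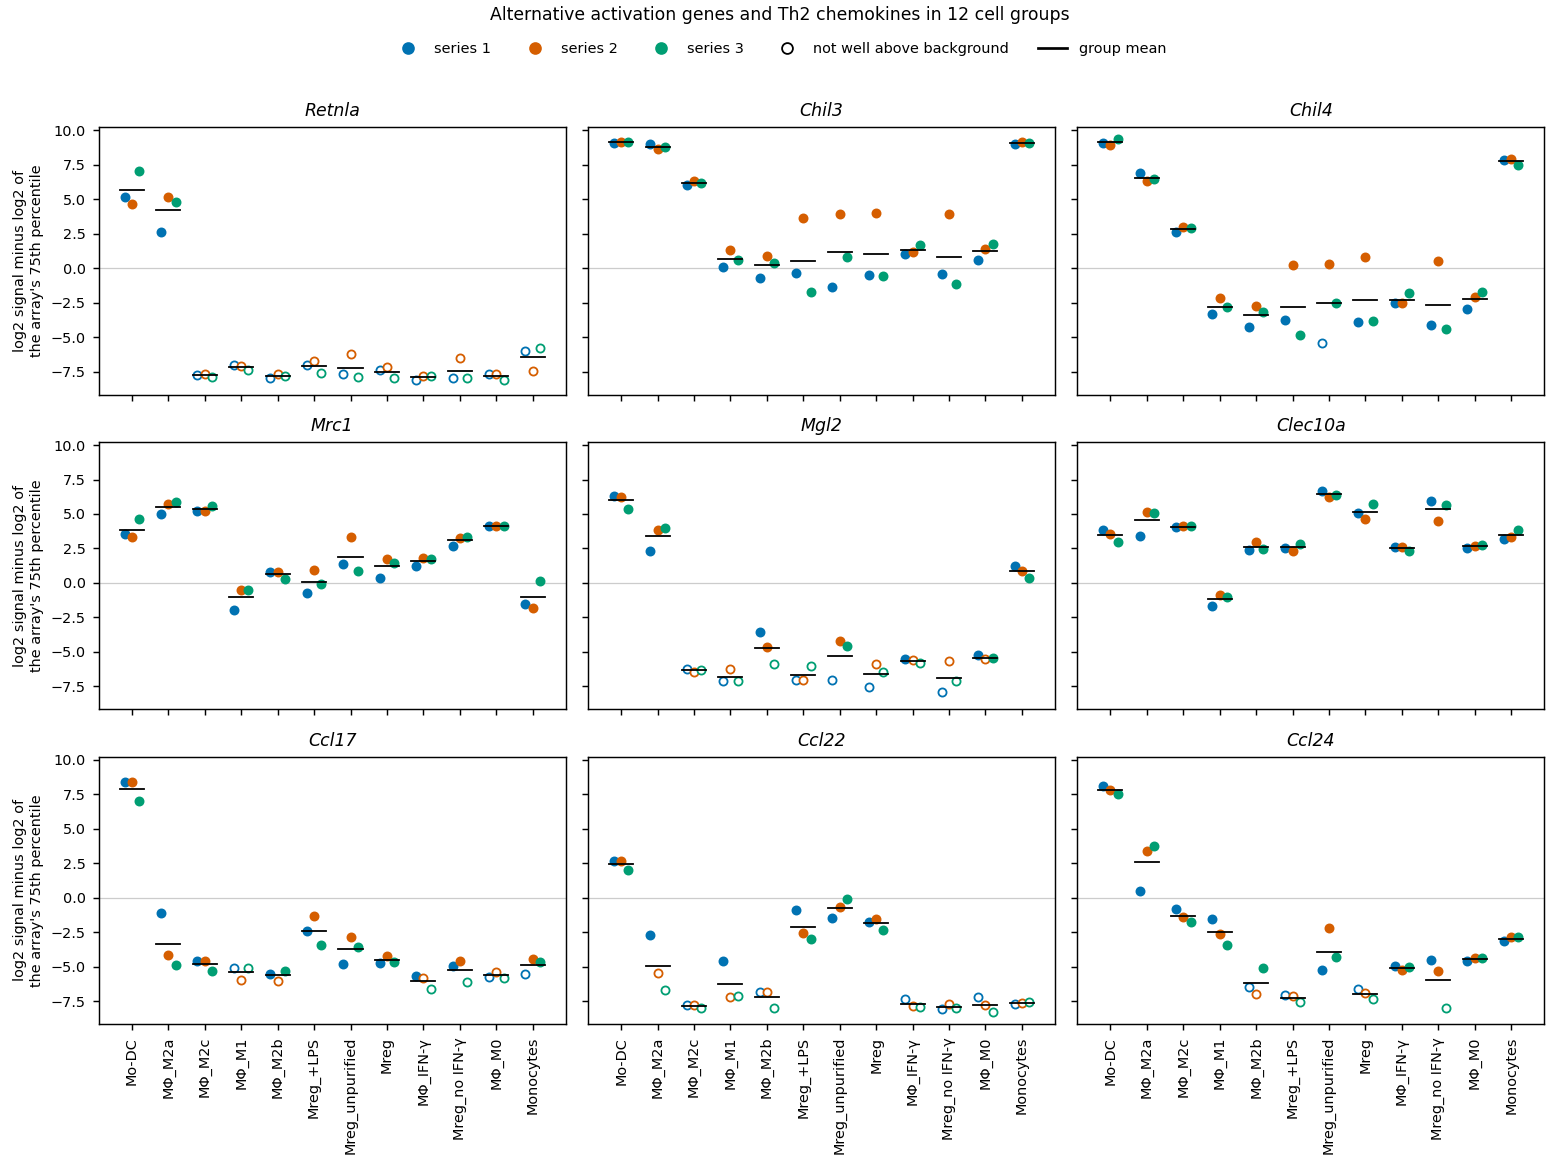
Log2 signal relative to the array's 75th percentile (vertical axis) of the 9 genes on every array, by group (horizontal axis), for the brightest probe of each gene. Colours give the series, open points are arrays on which the probe was not well above background, and bars are group means. Retnla stands above background only in Mo-DC and MΦ_M2a, Chil3 and Chil4 are also high in Monocytes, and in each Mreg culture the series 2 array lies above the others for Chil3 and Chil4.

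The effect of IL-4 was read in MΦ_M2a against MΦ_M0, which shared slides. Of the 9 genes 8 were called higher and none lower, where 6.75% of all genes were called higher and 5.79% lower. The median log2 difference of the 9 genes was 7.01, against 0.06 over all genes. The summed dendritic cell markers were also higher, at 225, 129 and 119 in MΦ_M2a, against 53.3, 30.1 and 27.9 in MΦ_M0. Of the 10 genes, 6 were above background on all 3 arrays in MΦ_M2a and 7 in MΦ_M0. Cd209a and Clec9a were above it on no array of either group. Itgax, which is also among the other IL-4-induced genes read below, made up most of the MΦ_M0 sums (log2 5.12 ± 0.52, SD, n = 3). The part of these markers in the result was not tested. Retnla read 2.62, 5.16 and 4.80 on the MΦ_M2a arrays of series 1 to 3, against −7.66, −7.65 and −8.09 on the MΦ_M0 arrays, none of which was above background. It was at least 917-fold higher in MΦ_M2a (limma adjusted p = 4.7e-14). Chil3 read 8.98, 8.64 and 8.82 in MΦ_M2a, against 0.60, 1.41 and 1.74 in MΦ_M0. That difference was 189-fold (log2 7.56, SE 1.26, limma adjusted p = 0.00014). Chil4 read 6.88, 6.35 and 6.44 in MΦ_M2a, against −2.95, −2.05 and −1.74 in MΦ_M0 (446-fold, limma adjusted p = 2.6e-05). The arrays of the 2 groups overlapped for none of the 9 genes, including Mrc1, which was not called. How many of all genes lacked overlap was not counted.

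Among the lectin receptors, the close relatives Mgl2 and Clec10a, which bind galactose-type sugars, differed widely in size of change. Mgl2 read 2.33, 3.87 and 3.96 in MΦ_M2a, against −5.20, −5.55 and −5.47 in MΦ_M0, where 2 of 3 arrays were above background. The difference was 444-fold (limma adjusted p = 2.5e-10) and rests partly on signal near background. Clec10a read 3.37, 5.16 and 5.08 in MΦ_M2a, against 2.54, 2.66 and 2.78 in MΦ_M0 (3.68-fold, limma adjusted p = 0.00093). Fitted on these 2 groups alone, its adjusted p was 0.079. Mrc1, the mannose receptor, read 4.97, 5.72 and 5.89 in MΦ_M2a, against 4.10, 4.13 and 4.10 in MΦ_M0. The groups did not overlap, and the difference of 1.42 (SE 0.55) missed the threshold with limma (adjusted p = 0.095). With the series number as a replicate block it passed (adjusted p = 0.048). The deviations of same-numbered arrays correlated at 0.154 to 0.267 here. These arrays also shared a slide, so series and slide cannot be told apart.

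The chemokines followed 2 patterns in IL-4. Ccl24 read 0.50, 3.39 and 3.76 in MΦ_M2a, against −4.63, −4.38 and −4.35 in MΦ_M0 (129-fold, limma adjusted p = 4.1e-07), and its dimmer probe rose by 6.16 on the log2 scale. Ccl17 read −1.10, −4.19 and −4.90 in MΦ_M2a, against −5.74, −5.37 and −5.82 in MΦ_M0, with no MΦ_M0 array above background. It was at least 4.45-fold higher in MΦ_M2a (limma adjusted p = 0.025). Ccl22 was above background on 1 of 3 MΦ_M2a arrays (−2.74, −5.50 and −6.68) and on no MΦ_M0 array (−7.20, −7.78 and −8.29). With MΦ_M0 at its bound, Ccl22 was 1.60-fold higher in MΦ_M2a (limma adjusted p = 0.0067). That fold is not a firm lower bound, because most MΦ_M2a values were below background too. The calls of both CCR4 ligands were lost without the series 1 array of MΦ_M2a. There the log2 difference was 1.09 for Ccl17 (limma adjusted p = 0.31) and 1.67 for Ccl22 (limma adjusted p = 0.10). On normexp-corrected signals it was 0.27 for Ccl17 and −0.12 for Ccl22, neither called. The Ccl17 call was also lost without any one MΦ_M0 array (limma adjusted p of 0.051 to 0.080).

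The same array differed from the others in the opposite sense for 5 other members. Series 1 was scanned on another day than series 2 and 3, and each series had its own slides. Series, slide and scan day therefore cannot be told apart here. Against the MΦ_M0 array of its slide, the series 1 MΦ_M2a array differed less than those of series 2 and 3 in Retnla, Mrc1, Mgl2, Clec10a and Ccl24, and more in Chil3, Chil4, Ccl17 and Ccl22. For Ccl24 the log2 differences of series 1 to 3 were 5.13, 7.78 and 8.11. For Ccl17 they were 4.64, 1.17 and 0.92, with no MΦ_M0 array above background. Several marker sums were also highest on that array among the MΦ_M2a arrays: 225, against 129 and 119, for dendritic cells; 3.04, against 0.822 and 0.526, for eosinophils, basophils and mast cells; and 1.55, against 0.836 and 0.899, for neutrophils and their precursors. Their part in the result was not tested.

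**Figure D2:**
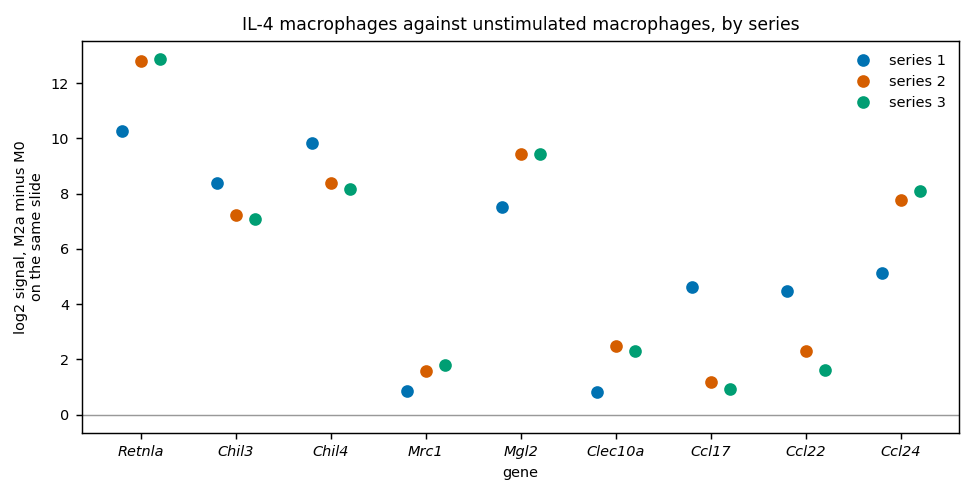
Difference in log2 signal between the MΦ_M2a and the MΦ_M0 array of the same slide (vertical axis) for each of the 9 genes (horizontal axis), coloured by series. Series 1 lies above series 2 and 3 for Ccl17 (4.64 against 1.17 and 0.92) and below them for Retnla, Mgl2, Clec10a and Ccl24.

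Of other genes known to answer IL-4, 9 of 15 measured were called higher in MΦ_M2a than in MΦ_M0 and none lower, with a median log2 difference of 2.11. Arg1, the arginase that splits arginine to ornithine, read 6.08 ± 0.27 in MΦ_M2a and −4.35 ± 0.38 in MΦ_M0 (SD, n = 3 each), a 1390-fold difference. Cdh1 (E-cadherin, a cell adhesion protein) was 86.1-fold higher, with 2 of 3 MΦ_M0 arrays above background, and Pdcd1lg2 (the inhibitory ligand PD-L2) was at least 37.0-fold higher. Of 10 genes of the IL-4 receptor and its signalling, 3 were called higher and none lower, with a median of 0.16. All 3 encode feedback inhibitors of cytokine signalling: Cish (101-fold), Socs2 (35.4-fold) and Socs1 (11.8-fold). Of 9 transcription and chromatin regulators tied to alternative activation, 7 were called higher and none lower (median 1.66). They included Irf4, which was above background on 1 of 3 MΦ_M0 arrays (36.2-fold), Batf3 (4.49-fold) and Egr2 (3.45-fold). Ccr3, the receptor for Ccl24 and the one of 2 listed receptors that was tested, did not pass (log2 −0.13).

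Mo-DC were the other group that met IL-4, for the whole culture and together with GM-CSF, and they also met IFN-γ. Against MΦ_IFN-γ, which had M-CSF and no IL-4, all 9 genes were called higher, where 22.4% of all genes were called higher and 25.1% lower. The median log2 difference was 11.39, or 11.34 with the genes below background in MΦ_IFN-γ at their bound, against −0.04 over all genes. Dendritic cell markers summed to 263 to 285 in Mo-DC, against at most 31.1 in MΦ_IFN-γ, and their part was not tested. Growth factor and IL-4 cannot be told apart in this comparison. Ccl17 read 8.36, 8.35 and 7.02 in Mo-DC, against −5.71, −5.81 and −6.60 in MΦ_IFN-γ, of which 1 array was above background. The fitted log2 difference was 13.95 (SE 0.67, limma adjusted p = 3.9e-15) and rests partly on signal below background. Ccl24 read 8.06, 7.82 and 7.54 in Mo-DC, against −4.97, −5.24 and −5.03 in MΦ_IFN-γ (7563-fold, limma adjusted p = 2.9e-13). Ccl22 read 2.68, 2.62 and 1.99 in Mo-DC and was below background in MΦ_IFN-γ, a difference of at least 279-fold. All 3 chemokines thus stood apart from MΦ_IFN-γ on every Mo-DC array.

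Retnla was at least 2598-fold higher in Mo-DC than in MΦ_IFN-γ, where no array was above background. Mgl2 read 6.31, 6.25 and 5.38 in Mo-DC, against −5.49, −5.60 and −5.79 in MΦ_IFN-γ (1 array above background). Chil3 read 9.06, 9.13 and 9.18 in Mo-DC, against 1.01, 1.21 and 1.69 in MΦ_IFN-γ (226-fold), and Chil4 was 2685-fold higher. The other lectin receptors differed far less. Mrc1 averaged 3.84 ± 0.70 in Mo-DC and 1.61 ± 0.30 in MΦ_IFN-γ (SD, n = 3 each; 4.70-fold, limma adjusted p = 0.0015). Clec10a averaged 3.44 ± 0.46 in Mo-DC and 2.53 ± 0.19 in MΦ_IFN-γ (1.88-fold, limma adjusted p = 0.046), and this call was lost in 5 of 6 fits that each left out 1 array, with log2 differences of 0.71 to 0.97 in those 5.

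Mo-DC and MΦ_M2a, the IL-4 groups, did not share slides. Of the 9 genes 5 were called higher in Mo-DC and 2 lower, where 21.4% of all genes were called higher and 25.6% lower. The chemokines differed most: Ccl17 was 2531-fold, Ccl22 168-fold (above background on 1 MΦ_M2a array) and Ccl24 38.2-fold higher in Mo-DC (limma adjusted p of 3.4e-13, 1.9e-09 and 2.9e-06). Mgl2 was 6.05-fold higher (limma adjusted p = 0.0014). Mrc1 was lower, at 3.84 ± 0.70 in Mo-DC and 5.53 ± 0.49 in MΦ_M2a (SD, n = 3 each; limma adjusted p = 0.013), a call lost without the series 2 array of Mo-DC (limma adjusted p = 0.068) or the series 3 array of MΦ_M2a (0.054). The remaining calls, Retnla (log2 1.45) and Clec10a (log2 −1.09), came from groups whose arrays overlapped. The Retnla difference was 0.66 without the series 1 array of MΦ_M2a (limma adjusted p = 0.36) and 0.74 without the series 3 array of Mo-DC (limma adjusted p = 0.31). The Clec10a call was lost in 3 of 6 fits that each left out 1 array. Chil3 was not called (log2 0.31, SE 1.26), and Chil4 (log2 2.57) missed the threshold (limma adjusted p = 0.10) and passed it on normexp-corrected signals (limma adjusted p = 0.0094). Neither gene's groups overlapped. The model shares 1 spread per gene over all groups, and the SD in Mreg was 2.62 for Chil3 and 2.7 for Chil4. In Mo-DC and MΦ_M2a the SDs were 0.06 and 0.17 for Chil3, and 0.21 and 0.28 for Chil4. Fitted on these groups alone, Chil4 was called and Chil3 was not.

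Dexamethasone, a synthetic glucocorticoid, was added in MΦ_M2c. Against MΦ_M0, 4 of the 9 genes were called higher and none lower, where 9.93% of all genes were called higher and 10.7% lower. Chil3 read 6.05, 6.32 and 6.18 in MΦ_M2c, against 0.60, 1.41 and 1.74 in MΦ_M0 (30.6-fold, limma adjusted p = 0.0055). Chil4 read 2.65, 3.02 and 2.89 in MΦ_M2c, against −2.95, −2.05 and −1.74 in MΦ_M0 (34.3-fold, limma adjusted p = 0.0048). Neither gene's groups overlapped. The summed markers of Ly6C-high monocytes moved with both genes, at 78.0, 52.4 and 64.4 in MΦ_M2c, against 8.76, 9.73 and 11.4 in MΦ_M0. Of these genes, 5 of 5 were above background in MΦ_M2c and 4 of 5, without Vcan, in MΦ_M0. F13a1 alone made up most of the MΦ_M2c sums, at 5.71 ± 0.41, against 1.79 ± 0.38 in MΦ_M0 (log2, SD, n = 3 each). Monocytes, where these sums were 443 to 517, were themselves high in Chil3 (9.09 on average) and Chil4 (7.75), and the part of such cells was not tested. Ccl24 read −0.85, −1.43 and −1.74 in MΦ_M2c, against −4.63, −4.38 and −4.35 in MΦ_M0 (8.67-fold, limma adjusted p = 0.0041). Clec10a was 2.69-fold higher (limma adjusted p = 0.0065). Retnla and Ccl22 were above background in neither group, and Mgl2 was above it on no MΦ_M2c array. With series 2 and 3 alone, the arrays of the first scan day, the Chil3 difference was 4.68 (limma adjusted p = 0.097) and the Chil4 difference 4.85 (limma adjusted p = 0.074). The spread behind these p-values is shared with the Mreg groups, where both genes varied most. By series 1 to 3 the log2 differences were 5.45, 4.91 and 4.44 for Chil3, and 5.60, 5.07 and 4.63 for Chil4. Both calls were kept in the fit of only the groups compared. On normexp-corrected signals the Ccl24 difference was 1.18 (limma adjusted p = 0.11).

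In the same comparison 2 of 15 other IL-4-induced genes were called higher and 3 lower. F13a1, a coagulation factor subunit that is also among the monocyte markers, was 15.1-fold and Arg1 6.42-fold higher in MΦ_M2c, and Il1rn, the interleukin-1 receptor antagonist, was 4.03-fold lower. Of the regulators 2 of 9 were called higher and 4 lower, among them Egr2 (23.0-fold lower) and Kdm6b, a histone demethylase (2.98-fold higher). Of the 10 signalling genes, 4 were called higher and 1 lower. Il4ra, the IL-4 binding chain of the receptor, read 5.02 ± 0.12 in MΦ_M2c and 3.42 ± 0.14 in MΦ_M0 (SD, n = 3 each; 3.02-fold, limma adjusted p = 6.9e-06). Socs2 and Cish were 4.41-fold and 3.17-fold higher, and Ccr3 was 4.70-fold lower. MΦ_M2a and MΦ_M2c were set against the same MΦ_M0 arrays, so their differences are given side by side and not counted as separate support.

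**Figure D3:**
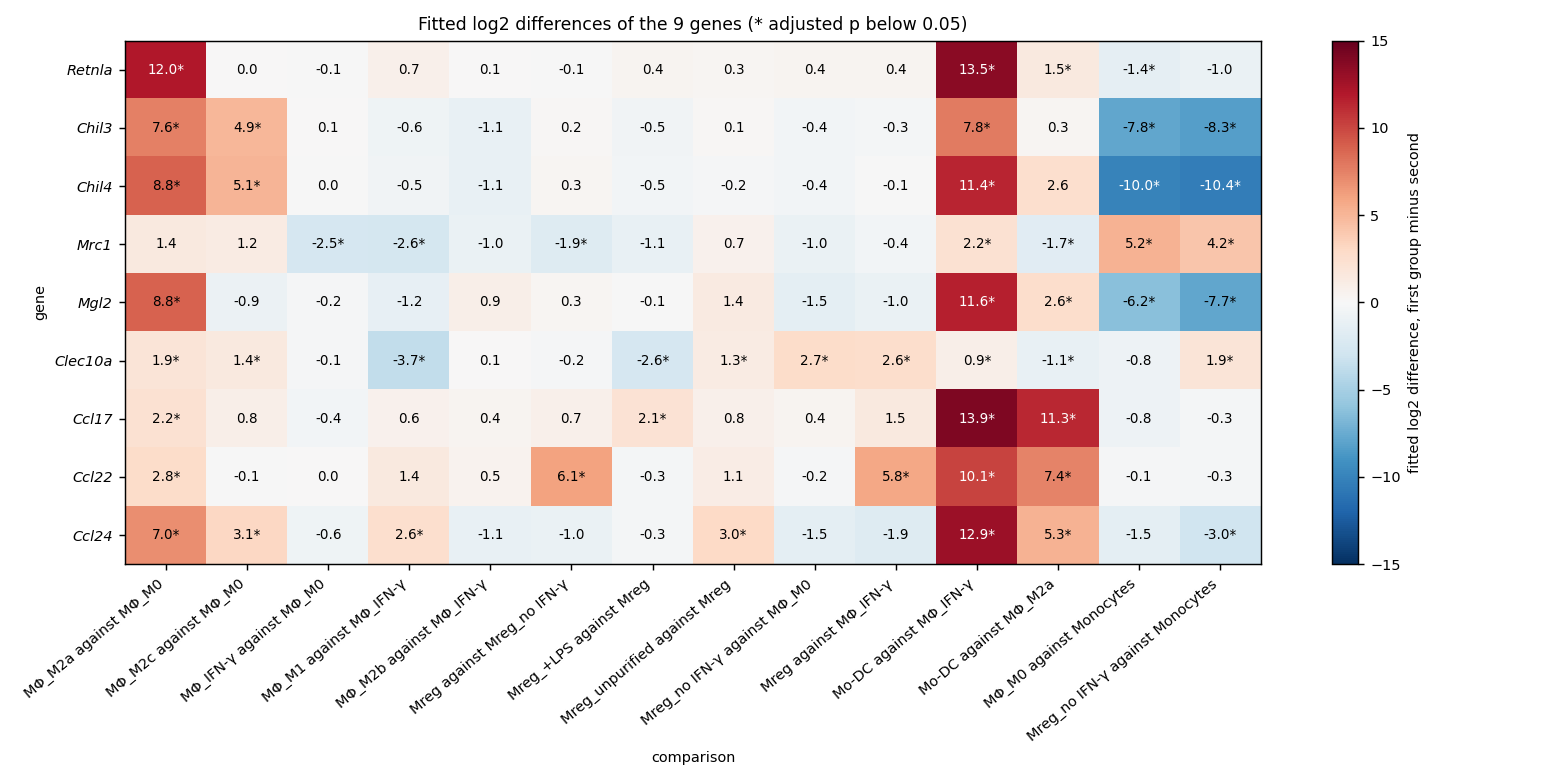
Fitted log2 difference, first group minus second (colour and number in each cell), of the 9 genes (rows) in 14 comparisons (columns), with an asterisk where the adjusted p was below 0.05. The MΦ_M2a against MΦ_M0 and Mo-DC against MΦ_IFN-γ columns hold 8 and 9 calls, all higher, and MΦ_M2b against MΦ_IFN-γ holds none.

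IFN-γ was set against no stimulus in both cultures. In MΦ_IFN-γ against MΦ_M0 none of the 9 genes was called higher and 1, Mrc1, was called lower, where 11.0% of all genes were called higher and 11.1% lower. Mrc1 read 1.26, 1.82 and 1.75 in MΦ_IFN-γ, against 4.10, 4.13 and 4.10 in MΦ_M0, a difference of −2.50 (SE 0.55, limma adjusted p = 0.0011). Ly6C-high monocyte markers summed to 51.1 to 62.1 in MΦ_IFN-γ, against 8.76 to 11.4 in MΦ_M0, and their part was not tested. The levels of Chil3, Chil4, Clec10a and Mgl2 overlapped between these groups, and those of Ccl24 did not. Ccl24 was lower in MΦ_IFN-γ (log2 −0.62, SE 0.77) and was not called (limma adjusted p = 0.67). It was called in the fit of only the groups compared. In Mreg against Mreg_no IFN-γ, which shared slides, 1 gene was called higher and 1 lower, where 9.5% of all genes were called higher and 10.9% lower. Mrc1 was again the lower one, at 0.36, 1.77 and 1.47 in Mreg, against 2.70, 3.28 and 3.31 in Mreg_no IFN-γ (3.73-fold, limma adjusted p = 0.014). It was lower on all 3 slides, and the call was lost without the series 1 array of Mreg (log2 −1.48, limma adjusted p = 0.11) or the series 3 array of Mreg_no IFN-γ (log2 −1.79, limma adjusted p = 0.050).

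The higher gene was Ccl22. It read −1.74, −1.54 and −2.32 in Mreg, against −8.10, −7.73 and −8.03 in Mreg_no IFN-γ, with no array of the second group above background. All 3 Mreg arrays were above background, and Ccl22 was at least 14.0-fold higher in Mreg (limma adjusted p = 2.4e-07). In the M-CSF culture Ccl22 was above background in neither MΦ_IFN-γ nor MΦ_M0. The test of the difference of the 2 IFN-γ responses called Ccl22, and none of the other 8 genes, more positive in the Mreg culture (limma adjusted p = 0.0012), where 1.19% of all genes were more positive and 0.46% more negative. Since 3 of the 4 groups were below background, that difference has a direction and no measured size. On normexp-corrected signals the response in Mreg remained called (log2 1.26, limma adjusted p = 0.044) and the difference of the responses did not (log2 1.98, limma adjusted p = 0.20). Ccl17, on chromosome 8 like Ccl22, read −4.73, −4.21 and −4.65 in Mreg, against −4.97, −4.60 and −6.14 in Mreg_no IFN-γ, and was not called (log2 0.71, SE 0.67). The serum, the M-CSF dose and the slides all differed between the 2 cultures and cannot be told apart.

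The signalling genes were next read for IFN-γ. In MΦ_IFN-γ against MΦ_M0, 6 of 10 were called higher and none lower, with Socs1 70.7-fold, Cish 3.97-fold and Il13ra1, a receptor chain for IL-4 and IL-13, 3.50-fold higher. In Mreg against Mreg_no IFN-γ, 6 of 10 were called higher and none lower, with Socs1 37.9-fold, Il13ra1 3.95-fold and Cish 3.34-fold higher. Of the other IL-4-induced genes, 6 of 15 were called higher and 4 lower in MΦ_IFN-γ against MΦ_M0, and 5 higher and 2 lower in Mreg against Mreg_no IFN-γ. Pdcd1lg2 was at least 17.5-fold higher in MΦ_IFN-γ than in MΦ_M0, and Flt1, a receptor for vascular endothelial growth factor, was 9.45-fold higher in Mreg than in Mreg_no IFN-γ. Ccr3 was lower with IFN-γ in both cultures, 24.5-fold in MΦ_IFN-γ and 3.64-fold in Mreg. Of the regulators, 3 of 9 were called higher and 2 lower in MΦ_IFN-γ, and 2 higher and none lower in Mreg, with Ppargc1b, a coactivator of mitochondrial genes, 7.24-fold higher in MΦ_IFN-γ and 3.17-fold in Mreg.

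Mreg against MΦ_IFN-γ set the cultures side by side under IFN-γ. Of the 9 genes 2 were called higher and none lower, where 14.0% of all genes were called higher and 14.0% lower. Clec10a read 5.05, 4.65 and 5.73 in Mreg, against 2.64, 2.64 and 2.30 in MΦ_IFN-γ (6.13-fold, limma adjusted p = 5.9e-06). Ccl22 was at least 14.2-fold higher in Mreg (limma adjusted p = 3.8e-07). Without IFN-γ, in Mreg_no IFN-γ against MΦ_M0, 1 of the 9 genes was called higher and none lower, where 17.2% of all genes were called higher and 13.7% lower. That gene was Clec10a, at 5.93, 4.48 and 5.64 in Mreg_no IFN-γ, against 2.54, 2.66 and 2.78 in MΦ_M0 (6.48-fold, limma adjusted p = 3.3e-06). Clec10a was thus higher in the Mreg culture with and without IFN-γ, and the groups overlapped in neither case. Among other IL-4-induced genes Arg1 was 170-fold higher in Mreg than in MΦ_IFN-γ and 560-fold higher in Mreg_no IFN-γ than in MΦ_M0, and 7 of 15 were called higher and 3 lower in the first of these comparisons, with 5 and 2 in the second.

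Chil3 and Chil4 varied between series in the Mreg cultures more than in any other group. Chil3 read 3.67 to 4.03 on the 4 Mreg-culture arrays of series 2, which lay on 1 slide, and −1.75 to 0.85 on the 8 arrays of series 1 and 3. For Chil4 the ranges were 0.26 to 0.80 on the series 2 arrays and −5.40 to −2.53 on the others. The SD within Mreg was 2.62 for Chil3, against 0.58 in MΦ_M0. Since the model shares 1 spread per gene over all groups, this variation enters every p-value of Chil3 and Chil4 from all arrays. For each of the other 7 members the ranges of the series 2 arrays and the other arrays overlapped. Those ranges pool 4 cultures with different treatments, so the overlap cannot show that series 2 differed in Chil3 and Chil4 only. Within each of the 4 cultures Ccl17 was highest and Clec10a lowest on the series 2 array. Dendritic cell markers summed to 47.4 to 81.6 on the 4 series 2 arrays, against 23.0 to 46.9 on the other 8, and their part in the result was not tested. With the 4 series 2 arrays left out, the fitted Chil3 difference was −2.02 for Mreg_no IFN-γ against MΦ_M0 and −1.81 for Mreg against MΦ_IFN-γ, where all arrays gave −0.45 and −0.30 (SE 1.26 each, neither called). For Chil4 the values were −2.02 and −1.61 without these arrays, and −0.42 and −0.05 with all (SE 1.28 each, neither called). The arrays were left out for their levels of these same genes, so the values without them are a description and carry no test.

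**Figure D4:**
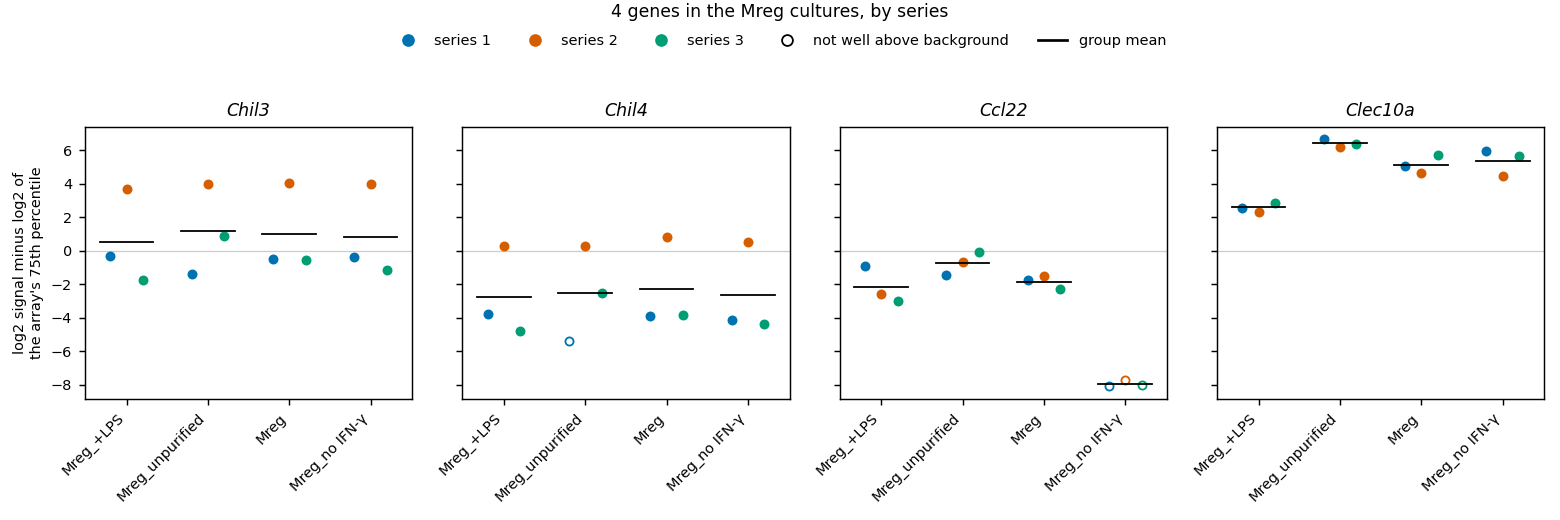
Log2 signal relative to the array's 75th percentile (vertical axis) of Chil3, Chil4, Ccl22 and Clec10a in the 4 Mreg cultures (horizontal axis), coloured by series, with open points not well above background and bars at group means. The series 2 arrays of Chil3 lie between 3.67 and 4.03, above all others, and Ccl22 is below background in Mreg_no IFN-γ only.

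LPS, the bacterial cell wall lipid sensed by TLR4, was added to IFN-γ in both cultures. In MΦ_M1 against MΦ_IFN-γ 1 of the 9 genes was called higher and 2 lower, where 27.9% of all genes were called higher and 23.3% lower. Clec10a read −1.64, −0.87 and −1.05 in MΦ_M1, against 2.64, 2.64 and 2.30 in MΦ_IFN-γ (13.1-fold lower, limma adjusted p = 4.4e-09). Mrc1 read −1.99, −0.54 and −0.49 in MΦ_M1, against 1.26, 1.82 and 1.75 in MΦ_IFN-γ (6.14-fold lower, limma adjusted p = 0.00025). Both lectin receptors were lower on every array. Ccl24 read −1.52, −2.61 and −3.43 in MΦ_M1, against −4.97, −5.24 and −5.03 in MΦ_IFN-γ (5.89-fold higher, limma adjusted p = 0.0067), and on normexp-corrected signals the difference was 1.17 (limma adjusted p = 0.073). Ccl22 was above background on 1 MΦ_M1 array and was not called without a block (limma adjusted p = 0.088; 0.049 with the series as a block).

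In Mreg_+LPS against Mreg 1 of the 9 genes was called higher and 1 lower, where 31.9% of all genes were called higher and 25.5% lower. Clec10a read 2.55, 2.34 and 2.85 in Mreg_+LPS, against 5.05, 4.65 and 5.73 in Mreg (5.91-fold lower, limma adjusted p = 1.5e-06). Ccl17 read −2.43, −1.35 and −3.46 in Mreg_+LPS, against −4.73, −4.21 and −4.65 in Mreg (4.34-fold higher, limma adjusted p = 0.0085). Its groups did not overlap, and the call was lost without the series 2 array of Mreg_+LPS (log2 1.58, limma adjusted p = 0.067). Mrc1 had a log2 difference of −1.14 and a limma adjusted p of 0.079, or 0.047 with the series as a block. Ccl22 was above background on all arrays of both groups and not called (log2 −0.29, SE 0.69). The LPS responses were also tested against each other, where 18.5% of all genes were more positive in the Mreg culture and 16.5% more negative. Ccl24 was called more negative there (log2 −2.86, SE 1.08, limma adjusted p = 0.042), with no array above background in Mreg_+LPS or Mreg. The call was lost with the dimmer probe shown above (log2 −1.87, limma adjusted p = 0.14) and in 10 of 12 fits that each left out 1 array. For Clec10a, lower with LPS in both cultures, the difference of responses was 1.15 (SE 0.53) and missed the threshold (limma adjusted p = 0.095).

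Of the other IL-4-induced genes 2 of 15 were called higher and 5 lower in MΦ_M1 against MΦ_IFN-γ, and 2 higher and 6 lower in Mreg_+LPS against Mreg. Slc7a2, a transporter of arginine, was 65.8-fold higher in MΦ_M1 and 28.2-fold higher in Mreg_+LPS. Il1rn was 39.9-fold and 7.15-fold higher in the same groups. Ptgs1, cyclooxygenase 1, was at least 22.9-fold lower in MΦ_M1, and Cdh1 was 16.6-fold lower in Mreg_+LPS, with 1 of 3 arrays above background there. Of the regulators 3 of 9 were called higher and 4 lower in MΦ_M1, and 2 higher and 5 lower in Mreg_+LPS. Pparg, a lipid-sensing nuclear receptor, was 7.64-fold lower in MΦ_M1 and 3.78-fold lower in Mreg_+LPS. Larger differences in MΦ_M1 were those of Myc (43.4-fold lower, 2 of 3 arrays above background) and Klf4 (12.8-fold higher). Both differed between the cultures in their LPS response (log2 4.14 for Myc and −3.28 for Klf4).

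Immunoglobulin coating under IFN-γ called none of the 9 genes in MΦ_M2b against MΦ_IFN-γ with limma, where 2.16% of all genes were called higher and 1.78% lower. At an unadjusted p below 0.05 the count was also 0 of 9, and limma on normexp-corrected signals or with the series as a block called none. Mrc1 read 0.82, 0.80 and 0.27 in MΦ_M2b, against 1.26, 1.82 and 1.75 in MΦ_IFN-γ, and its difference of −0.98 (SE 0.55) had a limma adjusted p of 0.42. Mgl2 was above background on 2 MΦ_M2b arrays and 1 MΦ_IFN-γ array. In this comparison Arg1 was 8.55-fold higher in MΦ_M2b (limma adjusted p = 3.9e-05).

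Cells from an unsorted start were compared with sorted ones in Mreg_unpurified against Mreg. Of the 9 genes 2 were called higher and none lower, where 6.67% of all genes were called higher and 5.36% lower. Clec10a read 6.68, 6.21 and 6.40 in Mreg_unpurified, against 5.05, 4.65 and 5.73 in Mreg (2.44-fold, limma adjusted p = 0.025). Ccl24 read −5.26, −2.20 and −4.30 in Mreg_unpurified, and no Mreg array was above background (at least 3.11-fold, limma adjusted p = 0.011). Neither call held with the series 2 arrays of the Mreg cultures left out, a setting chosen after seeing the data (limma adjusted p of 0.13 for Clec10a and 0.19 for Ccl24). Leaving out single arrays also ended the calls: series 1 or 2 of either group for Clec10a, and series 3 of Mreg or series 2 of Mreg_unpurified for Ccl24. The series 2 array of Mreg_unpurified also had the highest summed neutrophil markers (3.06, against 0.158 and 0.224 on the other 2) and eosinophil, basophil and mast cell markers (1.43, against 0.101 and 0.327), and their part in the result was not tested.

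Culture was set against the starting cells last. In MΦ_M0 against Monocytes 1 of the 9 genes was called higher and 4 lower, where 30.2% of all genes were called higher and 33.2% lower. Mrc1 read 4.10, 4.13 and 4.10 in MΦ_M0, against −1.52, −1.78 and 0.14 in Monocytes (35.9-fold higher, limma adjusted p = 5.1e-09). Chil3 read 0.60, 1.41 and 1.74 in MΦ_M0, against 9.04, 9.13 and 9.09 in Monocytes (229-fold lower, limma adjusted p = 4.9e-06). Chil4 was 1022-fold lower in MΦ_M0, and Mgl2 read −5.20, −5.55 and −5.47 in MΦ_M0, against 1.25, 0.90 and 0.35 in Monocytes (75.7-fold lower). The Monocytes that were high in these 3 genes are the arrays with the granulocyte, lymphocyte and NK cell markers given above, and the part of other cells was not tested. The fourth lower call, Retnla, had no array above background in either group, its call was lost in 5 of 6 fits that each left out 1 array, and its second probe did not pass (log2 −0.33, limma adjusted p = 0.55).

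In Mreg_no IFN-γ against Monocytes 2 of the 9 genes were called higher and 4 lower, where 33.9% of all genes were called higher and 33.3% lower. Mrc1 was 17.8-fold and Clec10a 3.75-fold higher in Mreg_no IFN-γ (limma adjusted p of 1.9e-07 and 6.0e-05). Chil3 and Chil4 were 312-fold and 1368-fold lower there, Mgl2 at least 90.9-fold lower, and Ccl24 7.91-fold lower with 2 of 3 Mreg_no IFN-γ arrays above background. The Ccl24 call was lost on normexp-corrected signals (log2 −0.57, limma adjusted p = 0.40). Alox15, a lipoxygenase among the other IL-4-induced genes, was at least 189-fold lower in Mreg_no IFN-γ and at least 186-fold lower in MΦ_M0 than in Monocytes.

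Across the 12 groups the members had different reach. Chil3, Mrc1 and Clec10a were above background on all 36 arrays and Chil4 on 35, Ccl24 on 27, Ccl17 on 25, Mgl2 on 16, Ccl22 on 14 and Retnla on 6. The highest mean was in Mo-DC for Retnla, Chil3, Chil4, Mgl2, Ccl17, Ccl22 and Ccl24, in MΦ_M2a for Mrc1 and in Mreg_unpurified for Clec10a. At the top of the order, Mo-DC and MΦ_M2a overlapped for Retnla, Mo-DC and Monocytes overlapped for Chil3, and MΦ_M2a and MΦ_M2c overlapped for Mrc1. As a description over 12 group means, which share arrays, slides and scaling, Chil3 correlated with Chil4 at 0.992, and Retnla correlated with Mgl2 at 0.903 and with Ccl24 at 0.893. Clec10a correlated with none of the others above 0.447. Ccl17 and Ccl22 correlated at 0.791.

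The genes whose 12 group means were most like a member's were taken by Pearson's r, again as a description. Retnla was above background on no array of 10 groups, Ccl22 of 6 and Mgl2 of 5. Their correlations, here and above, therefore rest partly on values below background. For Retnla they were Il31ra (0.964), Fxyd6 (0.958) and Sertad4 (0.950), and for Mgl2 they were Irf4 (0.982), Il31ra (0.968) and Ffar4 (0.953). Chil3 and Chil4 shared Rmnd5b (0.916 and 0.926) and Cobll1 (0.909 and 0.921), followed by Sdf2l1 for Chil3 (0.891) and Irf4 for Chil4 (0.919). Mrc1 was most like Slc39a12 (0.956), Cerk (0.949) and Timp2 (0.932), and Clec10a most like Ech1 (0.951), Adssl1 (0.945) and Acaa2 (0.920). Among the chemokines, Ccl17 was most like Plet1 (0.987), Pcolce (0.987) and Cldn10 (0.981). Ccl22 was most like Ovol2 (0.948), Slc2a10 (0.946) and Aqp12 (0.937), and Ccl24 most like Socs2 (0.939), Il20rb (0.937) and Heg1 (0.933).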

How the data were processed

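Per the file headers, the spot intensities came from Feature Extraction 10.5.1.1, which also corrected their background (GE1_105_Jan09). The flags for spots well above background, uneven or outlying were deposited in the same files. The authors' series table holds log2 intensities that were quantile-normalized before they were deposited, and it was used as an alternative. Labelled cRNA came from 0.5 µg of total RNA, per the labels' protocols. Replicates are the 3 series of the labels; 9 slides held 4 arrays each, with 1 series to a slide, and series 1 was scanned on another day than series 2 and 3.

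From the intensities, log2 values minus the 75th percentile of each array were computed (320.0 to 648.2 across arrays), uneven and outlying spots (51 to 323 per array) were set to missing, and 26478 probes remained after a filter that asked for 3 arrays with a spot well above background. The brightest probe stood for each gene. The model, in limma 3.58.1 (R 4.3.3), had a coefficient for each of the 12 groups. To bound a fold, every array of a group with no detected spot took the higher of its own value and the dimmest detected spot of that array. With 1 or 2 detected arrays, all 3 measured values were used. No fold is given where both groups were below or the bound was under 1. The fit was checked on simulated arrays, made from the measured means and spreads with known changes added to the MΦ_M2a arrays. Arrays have no read depth; their number limits the precision.

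The rule for named genes took all members in every comparison, up to 3 members of each list that passed with at least a 2-fold change, of which the text gives a part, and the 3 likest genes of each member without clone or predicted names. Members and lists were chosen with earlier results of these data known. Pairing by series was checked through deviations from group means: every pair correlated above 0.1 in 7 of 14 comparisons. Alternatives were normexp correction (offset 50), quantile normalization, dropping the filter or asking for 18 arrays, averaging the probes of a gene, the series table, blocks for series, scan day or slide (the last as a random effect), the first scan day's arrays, only the groups compared, and each array left out. One more, without the Mreg-culture arrays of series 2, was chosen after seeing the data. Python 3.11.15 with matplotlib drew the figures.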

Additional observations from a re-analysis of the deposited data

Results flagged for a closer look

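Ccl22 and Ccl24 stood out because a test of the difference itself called their response to the same stimulus different between the Mreg and M-CSF cultures, and neither call held under every alternative. For Ccl22 the response to IFN-γ was more positive in the Mreg culture than in the M-CSF culture, with a fitted difference of 6.04 on the log2 scale (SE 0.97, limma adjusted p = 0.0012). On normexp-corrected signals it was 1.98 and not called (limma adjusted p = 0.20). Ccl22 was above background on all 3 Mreg arrays and on no Mreg_no IFN-γ array. For Ccl24 the response to LPS was more negative in the Mreg culture, with a fitted difference of −2.86 (SE 1.08, limma adjusted p = 0.042), and the probe was below background in both Mreg groups. That call was lost in 10 of 12 fits that each left out 1 array, with the dimmer probe (limma adjusted p = 0.14), on normexp-corrected signals, without the dim filter, with averaged probes, on the first scan day and without the series 2 arrays of the Mreg cultures. Both fitted sizes rest on groups below background.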

How the results depend on the processing

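Of 144 pairs of a gene and a comparison 54 were called, and 42 of those calls held without each array in turn. Calls kept were 43 of 54 on normexp-corrected signals, 51 with quantile normalization or the series table, 50 without the dim filter, 52 with averaged probes, 44 on the first scan day and 47 with only the groups compared, and 39 of the 39 still tested with the 18-array filter. Where no value shows why a count moved, the cause was not tested; the first scan day, single arrays left out and only the groups compared use fewer arrays, and the 18-array filter tests fewer genes. The directions that turned were Ccl22 in MΦ_M2a against MΦ_M0 (−0.12 with normexp) and Retnla in MΦ_M0 against Monocytes (0.29 with normexp). Ccl22 was well above background on 1 of those 6 arrays and Retnla on none.

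With the series as a replicate block all 54 calls were kept and 4 were gained, among them Chil4 in Mo-DC against MΦ_M2a (2.57, limma adjusted p = 0.046), where the pairing was not borne out. All genes called then numbered 1103 in MΦ_M2b against MΦ_IFN-γ (694 without the block), 3382 in Mreg_unpurified against Mreg (2118 without) and 470 for the difference of the IFN-γ responses (290 without). With slide as a random block they were 1297 in MΦ_M2b against MΦ_IFN-γ and 3579 in Mreg_unpurified against Mreg. No other count moved by over 1.5 times under the series block.

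With normexp, all genes called were 275 in MΦ_M2b against MΦ_IFN-γ, 2235 in Mreg against Mreg_no IFN-γ, 781 in Mreg_unpurified against Mreg, 3095 in Mreg_no IFN-γ against MΦ_M0, 3175 in Mreg against MΦ_IFN-γ, and 38 and 3875 for the differences of the IFN-γ and LPS responses. None of the 9 genes (0) was then called in Mreg_unpurified against Mreg and in both differences. Quantile normalization and the series table each called 1 of the 9 in Mreg_unpurified against Mreg. Without the dim filter, all genes called were 13875 in MΦ_M1 against MΦ_IFN-γ and 180 for the IFN-γ difference, and 0 of the 9 for the LPS difference, as with averaged probes. The 18-array filter left 5 of the 9 called in MΦ_M2a against MΦ_M0, 1 in Mreg against Mreg_no IFN-γ, 1 in Mreg against MΦ_IFN-γ, 4 in Mo-DC against MΦ_M2a, 3 in MΦ_M0 against Monocytes and 0 for the IFN-γ difference.

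On the first scan day, all genes called were 958 in MΦ_M2a against MΦ_M0, 341 in MΦ_M2b against MΦ_IFN-γ, 1987 in Mreg against Mreg_no IFN-γ and 71 for the IFN-γ difference. The 9 genes gave 2 calls in MΦ_M2c against MΦ_M0, 1 in Mreg against Mreg_no IFN-γ, 2 in Mreg_no IFN-γ against MΦ_M0 and 0 for the LPS difference. With only the groups compared, all genes called were 1465 in MΦ_M2a against MΦ_M0, 425 in MΦ_M2b against MΦ_IFN-γ, 2371 in Mreg against Mreg_no IFN-γ, 0 in Mreg_unpurified against Mreg and 567 for the IFN-γ difference. The 9 genes gave 2 calls in MΦ_IFN-γ against MΦ_M0, 5 in MΦ_M1 against MΦ_IFN-γ, 0 in Mreg_unpurified against Mreg, 2 in Mreg_no IFN-γ against MΦ_M0 and 4 in Mreg against MΦ_IFN-γ. Without the series 2 arrays of the Mreg cultures, left out after seeing that Chil3 and Chil4 were high on them (both are among the calls gained), 0 of the 9 and 647 of all genes were called in Mreg_unpurified against Mreg, and of the 9 genes 4 in Mreg_no IFN-γ against MΦ_M0, 4 in Mreg against MΦ_IFN-γ and 0 for the LPS difference.

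Leaving out single arrays gave 6 to 8 of the 9 genes and 1309 to 2151 of all genes in MΦ_M2a against MΦ_M0 (2209 with every array; 1309 without series 1 of MΦ_M2a). It gave 245 to 664 of all genes in MΦ_M2b against MΦ_IFN-γ, 1 to 2 of the 9 and 2378 to 3574 of all in Mreg against Mreg_no IFN-γ, 0 to 2 and 902 to 2241 in Mreg_unpurified against Mreg, 1 to 2 of the 9 in Mreg_no IFN-γ against MΦ_M0, 124 to 228 of all for the IFN-γ difference and 0 to 2 of the 9 for the LPS difference.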
